A study of Mus musculus with 20 samples.

Results

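TNF receptor family genes of regulatory T cells (Tregs) were followed across the 8 groups of a mouse microarray study. The 10 genes were the receptor genes Tnfrsf1b, Tnfrsf4, Tnfrsf9, Tnfrsf18, Tnfrsf25, Cd27 and Fas and the ligand genes Cd40lg, Tnfsf11 and Tnfsf8. They were matched by symbol in the array annotation, and each gene was read from its probe set with the highest mean. A named probe set was found for 9 of the 10 genes, out of 19505 genes in all, and Cd27 was not analysed here. The rule lists the members by name and uses no array value, although the list was drawn up with earlier results of these data known. The cells were CD4+CD25+ lymphocytes sorted from C57BL/6 mice and hybridised to Clariom S mouse arrays, 1 array per sample. The Rheb experiment held 3 arrays each of stimulated Rheb1/2 KO, stimulated WT, unstimulated Rheb1/2 KO and unstimulated WT Tregs. The Rag experiment held 2 arrays each of stimulated RagAB KO, stimulated WT, unstimulated RagAB KO and unstimulated WT Tregs, with stimulation for 8 h. The stimulus, the duration of stimulation in the Rheb experiment, and the Cre line or promoter behind either deletion were not given in the sources used here. Groups follow the sample titles and source names, which disagree with the treatment field for 6 arrays of the Rheb experiment. The labels do not say if replicate arrays stem from different mice, and the p-values therefore describe array-to-array spread, which may be technical. In these bulk samples, fewer cells of a type and less RNA per cell cannot be told apart.

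TNF receptors are membrane proteins that assemble in clusters when a ligand of the TNF family, itself usually a membrane protein on a neighbouring cell, binds them. Most of them recruit TRAF adaptors and activate NF-κB, and a subgroup with a death domain, to which Fas belongs, can trigger apoptosis. Tregs carry several of the costimulatory receptors at high density, among them OX40 (encoded by Tnfrsf4), 4-1BB (Tnfrsf9) and GITR (Tnfrsf18), and signals through them regulate Treg expansion and survival. Rheb is the small GTPase that activates the kinase complex mTORC1, and the Rag GTPases bring mTORC1 to the lysosome when amino acids are present.

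The arrays gave log2 signals, so a difference of 1 is a doubling of signal, and levels of different probe sets were not set against each other. The median of all genes per array was 7.67 to 7.77 in the Rheb experiment and 7.18 to 7.55 in the Rag experiment. The lowest medians of the Rag experiment were those of unstimulated RagAB KO replicate 1 (7.29) and unstimulated WT replicate 2 (7.18). Rheb, a gene targeted in the Rheb1/2 KO, was lower in stimulated KO Tregs by a log2 change of -0.93 ± 0.17 (SE, limma adjusted p = 0.0278) and in unstimulated KO Tregs by -0.88 ± 0.17 (adjusted p = 0.0413). Rraga, targeted in the RagAB KO, was lower by -2.18 ± 0.25 (SE, limma adjusted p = 0.00448) in stimulated and -2.43 ± 0.25 (adjusted p = 0.00266) in unstimulated KO Tregs. Rhebl1, the gene for Rheb2 and so the other target of the Rheb1/2 KO, differed by -0.76 ± 0.19 (SE, limma adjusted p = 0.119) in stimulated and -0.38 ± 0.19 (adjusted p = 0.522) in unstimulated KO Tregs. It had group means of 5.18 to 5.94 there, below the median of the negative control probe sets (6.86 to 7.16), so this probe set does not check the deletion. Rragb, the other target of the RagAB KO, differed by -0.22 ± 0.30 (SE, limma adjusted p = 0.955) in stimulated and -0.08 ± 0.30 (adjusted p = 0.973) in unstimulated KO Tregs, at group means of 6.99 to 7.38, within the signal range of the control probe sets. All 7 measured T cell markers and 8 of 9 measured Treg markers lay above the array median on all 20 arrays. The remaining Treg marker, Il2ra, which encodes the sort marker CD25, did so on 14, and Foxp3 was not analysed here. None of the 10 measured macrophage markers lay above the 95th percentile of the negative control probe sets on all arrays of any group. Of the 11 measured dendritic cell markers, 1 or 2 did so in each group, with Cst3 above that percentile on all 20 arrays. No B cell, NK cell or CD8 T cell marker did so, although Cd8b1 lay above the array median on all 20 arrays. Tnfrsf4, Tnfrsf9, Tnfrsf18 and Tnfrsf25 lay above that percentile on all 20 arrays. Tnfrsf1b did so on 4 of 12 and 5 of 8 arrays, Tnfsf8 on 0 of 12 and 2 of 8, and Cd40lg, Fas and Tnfsf11 on none, so their differences were measured within the signal range of the control probe sets.

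Of the 9 measured genes, 6 lie on mouse chromosome 4 (Tnfrsf1b, Tnfrsf4, Tnfrsf9, Tnfrsf18, Tnfrsf25 and Tnfsf8). Tnfrsf4 and Tnfrsf18 are direct neighbours among protein-coding genes there. Tnfsf11 lies on chromosome 14, Fas on chromosome 19 and Cd40lg on chromosome X. RefSeq start-site windows (GRCm38.p6, 250 bases before to 50 after each annotated start) were found for 9 of the 10 genes, in 11 windows, with none for Cd40lg in the table used. The windows of the genes that passed the stimulation test with the largest changes, and that of Fas, are printed to show the sequence at their starts. Capitals mark matches to the NF-κB consensus GGGRNWYYCC (both strands) or to the AP-1 motif TGANTCA (both strands). R is A or G, W is A or T, Y is C or T and N is any base. Fas did not pass the stimulation test, and its window is the only one outside Tnfrsf9 with a match. The windows not printed, those of Tnfrsf1b, Tnfrsf4, Tnfrsf25, Tnfsf11 and Cd27, hold no match.
Tnfrsf9, first window (chr4:150919905-150920204, + strand): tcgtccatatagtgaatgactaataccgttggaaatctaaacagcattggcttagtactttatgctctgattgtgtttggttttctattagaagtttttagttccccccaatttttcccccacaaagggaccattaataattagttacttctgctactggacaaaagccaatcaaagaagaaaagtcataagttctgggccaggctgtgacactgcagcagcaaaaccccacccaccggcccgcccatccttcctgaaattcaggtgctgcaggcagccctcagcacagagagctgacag
Tnfrsf9, second window (chr4:150927749-150928048, + strand): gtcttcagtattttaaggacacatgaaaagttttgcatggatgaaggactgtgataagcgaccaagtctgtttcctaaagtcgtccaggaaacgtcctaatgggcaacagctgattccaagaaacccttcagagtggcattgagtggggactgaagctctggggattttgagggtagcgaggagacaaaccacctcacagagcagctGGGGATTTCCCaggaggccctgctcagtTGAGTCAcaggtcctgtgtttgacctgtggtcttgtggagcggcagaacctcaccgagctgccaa
Tnfrsf18 (chr4:156026072-156026371, + strand): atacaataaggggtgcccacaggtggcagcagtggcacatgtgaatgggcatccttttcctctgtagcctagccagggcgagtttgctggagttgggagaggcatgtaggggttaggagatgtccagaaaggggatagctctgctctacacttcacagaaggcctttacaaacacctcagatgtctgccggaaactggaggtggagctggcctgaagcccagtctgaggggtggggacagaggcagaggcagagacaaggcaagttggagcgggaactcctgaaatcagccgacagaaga
Tnfsf8 (chr4:63861235-63861534, - strand): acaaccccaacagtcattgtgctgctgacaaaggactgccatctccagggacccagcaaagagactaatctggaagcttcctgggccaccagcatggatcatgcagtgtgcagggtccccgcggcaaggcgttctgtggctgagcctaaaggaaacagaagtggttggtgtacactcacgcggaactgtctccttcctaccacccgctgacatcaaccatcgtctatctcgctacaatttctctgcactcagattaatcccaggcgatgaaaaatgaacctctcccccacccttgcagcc
Fas (chr19:34290409-34290708, + strand): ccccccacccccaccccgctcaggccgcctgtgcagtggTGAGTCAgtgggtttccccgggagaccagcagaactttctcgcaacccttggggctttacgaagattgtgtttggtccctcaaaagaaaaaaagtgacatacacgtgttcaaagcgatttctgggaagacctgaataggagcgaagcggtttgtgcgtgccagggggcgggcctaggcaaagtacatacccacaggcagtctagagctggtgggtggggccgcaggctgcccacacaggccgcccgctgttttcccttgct

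The NF-κB consensus matched 1 of the 11 windows, the second Tnfrsf9 window, with 2 overlapping matches that start at positions -43 and -42 from the annotated start. The same consensus was found in 4.51% of all 32851 windows of this length. AP-1 letters were found in 2 of the 11 windows, at -15 in the second Tnfrsf9 window and at -211 in the Fas window, against 7.81% of all windows. The matches in the Tnfrsf9 window do not overlap each other across the 2 motifs. A match describes the letters only.

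**Figure D1:**
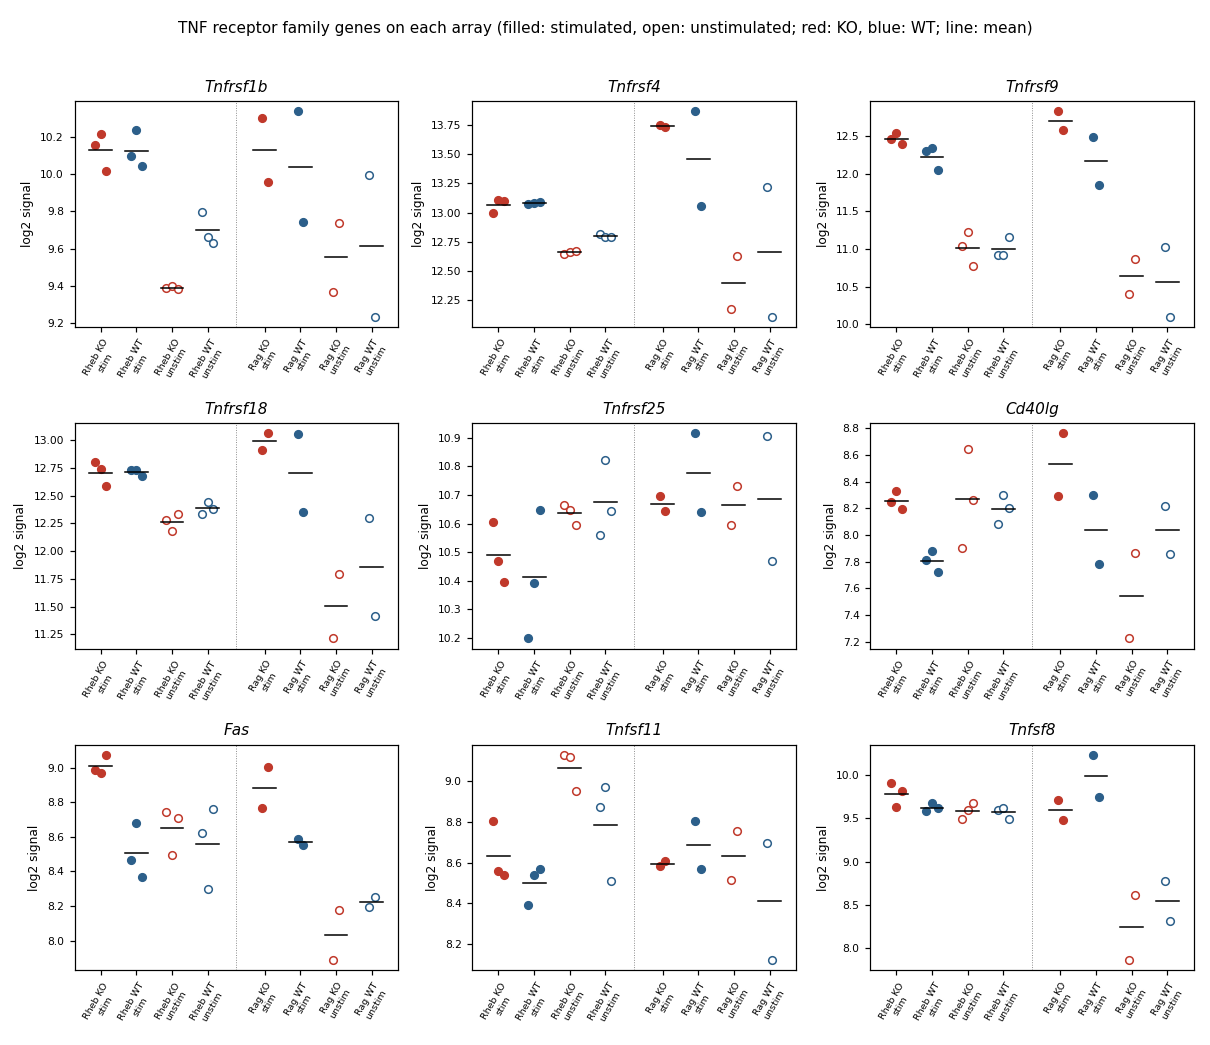
Log2 signal of the 9 measured genes on each of the 20 arrays, 1 panel per gene with its own vertical axis. Groups run from left to right as stimulated KO, stimulated WT, unstimulated KO and unstimulated WT, first for the Rheb and then for the Rag experiment; each point is an array and each line a group mean. Tnfrsf9 and Tnfrsf18 are higher on every stimulated than on every unstimulated array of the same experiment, whereas Tnfsf8 separates the states only in the Rag experiment.

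On stimulation of Rheb1/2 KO Tregs, 4 of the 9 genes rose (Tnfrsf1b, Tnfrsf4, Tnfrsf9 and Tnfrsf18) and 1 fell (Tnfsf11), against 9.75% of all genes called in either direction, 4.55% higher and 5.19% lower. In WT Tregs of that experiment the same 4 genes rose and none fell, against 9.37% of all genes called and 4.49% called higher. In RagAB KO Tregs 3 genes rose (Tnfrsf9, Tnfrsf18 and Tnfsf8), against 1.32% of all genes called and 1.20% called higher. In WT Tregs of the Rag experiment 2 rose (Tnfrsf9 and Tnfsf8), against 1.00% called and 0.477% called higher. A call is a Benjamini-Hochberg adjusted p under 0.05 over all 19505 genes, from limma, and the genes counted here as rising or falling were called. The median change of the 9 genes was 0.36 in Rheb1/2 KO and 0.06 in WT Tregs, beside -0.01 and 0.02 for all genes. In the Rag experiment it was 0.99 in KO and 0.43 in WT Tregs, beside 0.09 and 0.21 for all genes. Centring arrays on their medians removes these shifts of the median, and Tnfrsf9, Tnfrsf18 and Tnfsf8 kept their Rag-experiment calls under it. It does not align the bright end of the arrays. Before centring, the 99th percentile of all genes per array ran from 11.34 to 12.15 in the Rag and 11.99 to 12.07 in the Rheb experiment. Over all alternatives the RagAB KO changes ran from 1.58 to 2.30 for Tnfrsf9, 0.92 to 1.78 for Tnfrsf18 and 0.98 to 1.74 for Tnfsf8. In the Rheb experiment the 5 calls in KO Tregs were also kept, whereas the WT calls of Tnfrsf4 and Tnfrsf18 ended, which left 2. Arrays of the 2 states did not overlap for 5 genes upwards and 1 downwards in Rheb1/2 KO Tregs, against 13.5% and 14.4% of all genes, and for 4 upwards and 1 downwards in WT Tregs, against 12.9% and 11.5%. They did not overlap for 7 genes upwards in RagAB KO Tregs, against 31.9% of all genes, and for 4 upwards in WT Tregs beside them, against 37.3%. How long the unstimulated cells were kept before lysis was not given in the sources used here, so time after the sort and stimulation cannot be told apart.

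Tnfrsf9 encodes 4-1BB, a costimulatory receptor induced on activated T cells. It was the only one of the 9 genes that passed the test in all 4 stimulation comparisons. A rise in all 4 was not particular to it. Tnfrsf18 arrays also separated upwards in all 4, and the changes of Tnfrsf1b, Tnfrsf4 and Tnfsf8 lay above 0 in all 4. The Tnfrsf9 log2 signal in Rheb1/2 KO Tregs was 12.46, 12.54 and 12.40 after stimulation, against 11.04, 11.23 and 10.78 without it. In WT Tregs of that experiment it was 12.30, 12.34 and 12.04 after stimulation, against 10.92, 10.93 and 11.16 without it. The stimulated arrays all lay above the unstimulated ones, by a log2 change of 1.45 ± 0.13 in KO Tregs (SE, limma adjusted p = 1.3e-05) and 1.22 ± 0.13 in WT Tregs (adjusted p = 5.9e-05). Signals in RagAB KO Tregs were 12.83 and 12.58 after stimulation, against 10.41 and 10.87 without it. In WT Tregs beside them they were 12.49 and 11.85 after stimulation, against 11.03 and 10.10 without it. The groups again did not overlap, and the changes were 2.07 ± 0.33 in KO (SE, limma adjusted p = 0.00782) and 1.60 ± 0.33 in WT Tregs (adjusted p = 0.0351). Both Rheb-experiment calls were kept in all 20 alternatives. The RagAB KO call ended without either stimulated KO array, and the Rag WT call without either stimulated WT array or without unstimulated WT replicate 2, where the WT change was 1.14.

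Tnfrsf4 and Tnfrsf18, the neighbouring genes for OX40 and GITR, moved alike across arrays (Pearson r = 0.917 over the 12 Rheb-experiment arrays and 0.990 over the 8 Rag-experiment arrays, a description over arrays that share groups and scaling). High r was not particular to this pair. Tnfrsf4 had r = 0.962 and 0.948 with Tnfrsf1b and 0.919 and 0.947 with Tnfrsf9, in the same order of experiments. Tnfrsf18 had r = 0.943 and 0.905 with Tnfrsf1b. Tnfrsf4 read 12.99, 13.11 and 13.10 in stimulated Rheb1/2 KO Tregs, against 12.64, 12.67 and 12.67 in unstimulated ones. In WT Tregs it read 13.08, 13.08 and 13.09 after stimulation, against 12.81, 12.79 and 12.79 without it. The stimulated arrays were all higher, by 0.41 ± 0.08 in KO (SE, limma adjusted p = 0.00485) and 0.28 ± 0.08 in WT Tregs (adjusted p = 0.0420). The WT call was kept in 4 of 20 alternatives and ended when any one of the 12 arrays was left out. RagAB KO Tregs gave Tnfrsf4 signals of 13.75 and 13.73 with stimulation, against 12.17 and 12.63 without it, a change of 1.34 ± 0.36 that did not pass (SE, limma adjusted p = 0.0896). WT Tregs there read 13.87 and 13.05 with stimulation, against 13.22 and 12.11 without it, and these groups overlapped.

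Tnfrsf18 read 12.81, 12.74 and 12.58 in stimulated Rheb1/2 KO Tregs, against 12.28, 12.18 and 12.34 in unstimulated ones. WT Tregs read 12.73, 12.74 and 12.68 with stimulation, against 12.34, 12.44 and 12.39 without it. No stimulated array overlapped an unstimulated one, and Tnfrsf18 rose by 0.44 ± 0.09 in KO (SE, limma adjusted p = 0.00655) and 0.33 ± 0.09 in WT Tregs (adjusted p = 0.0390), the WT call holding in 8 of 20 alternatives. It ended without any 1 of the 6 WT arrays, without unstimulated KO replicate 1 and without stimulated KO replicate 2. Signals in RagAB KO Tregs were 12.92 and 13.07 after stimulation, against 11.21 and 11.80 without it. The rise of 1.49 ± 0.33 passed (SE, limma adjusted p = 0.0469) and was kept in 9 of 17 alternatives, with values from 0.92 to 1.78. Its call ended without unstimulated KO replicate 1, without any 1 of the 4 stimulated arrays and without any 1 of the 2 unstimulated WT arrays. In WT Tregs of that experiment Tnfrsf18 read 13.06 and 12.36 with stimulation, against 12.30 and 11.41 without it. Those groups did not overlap, and the change of 0.85 ± 0.33 did not pass (SE, limma adjusted p = 0.270).

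Tnfrsf1b encodes TNFR2, the TNF receptor that lacks a death domain and is prominent on Tregs. It read 10.16, 10.21 and 10.02 in stimulated Rheb1/2 KO Tregs, against 9.39, 9.40 and 9.38 in unstimulated ones. WT Tregs read 10.10, 10.24 and 10.04 after stimulation, against 9.80, 9.66 and 9.63 without it. The 2 stimulated groups covered nearly the same range, whereas the unstimulated KO arrays lay below every other array of the experiment. The rise was 0.74 ± 0.09 in KO (SE, limma adjusted p = 0.000211), kept in 20 of 20 alternatives, and 0.43 ± 0.09 in WT Tregs (adjusted p = 0.0109), kept in 17 of 20. The WT call ended without stimulated WT replicate 2. RagAB KO Tregs read 10.30 and 9.96 with stimulation, against 9.37 and 9.74 without it. WT Tregs beside them read 10.34 and 9.74 with stimulation, against 9.99 and 9.24 without it. The changes of 0.58 ± 0.30 in KO (SE, limma adjusted p = 0.440) and 0.43 ± 0.30 in WT Tregs (adjusted p = 0.479) did not pass.

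Tnfrsf25 encodes DR3, a death domain receptor that costimulates Tregs when its ligand TL1A binds. Its signal spanned 10.39 to 10.61 in stimulated Rheb1/2 KO Tregs and 10.20 to 10.65 in stimulated WT Tregs, against 10.59 to 10.66 in unstimulated KO and 10.56 to 10.82 in unstimulated WT Tregs. Rag-experiment signals were 10.70 and 10.64 in stimulated KO and 10.92 and 10.64 in stimulated WT Tregs, against 10.60 and 10.73 in unstimulated KO and 10.91 and 10.47 in unstimulated WT Tregs. All 4 pairs of states overlapped. The stimulation changes lay between -0.26 ± 0.12 (SE, limma adjusted p = 0.226) and 0.09 ± 0.24 (adjusted p = 0.854), and none passed.

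Fas encodes the death receptor CD95. It read 8.99, 8.97 and 9.07 in stimulated Rheb1/2 KO Tregs, against 8.74, 8.50 and 8.71 in unstimulated ones, and the groups did not overlap. WT Tregs read 8.47, 8.68 and 8.37 with stimulation, against 8.62, 8.30 and 8.76 without it, and those groups overlapped. The changes of 0.36 ± 0.13 in KO (SE, limma adjusted p = 0.106) and -0.05 ± 0.13 in WT Tregs (adjusted p = 0.881) did not pass. Fas in RagAB KO Tregs read 8.77 and 9.00 with stimulation, against 7.89 and 8.18 without it. In WT Tregs beside them it read 8.59 and 8.55 after stimulation, against 8.20 and 8.25 without it. The stimulated arrays were higher in both genotypes, by 0.85 ± 0.23 in KO (SE, limma adjusted p = 0.0916) and 0.35 ± 0.23 in WT Tregs (adjusted p = 0.454), neither of which passed.

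Tnfsf8 encodes CD153, the ligand of the receptor CD30, and it rose on stimulation in both genotypes of the Rag experiment. It read 9.72 and 9.48 in stimulated RagAB KO Tregs, against 7.86 and 8.62 in unstimulated ones. WT Tregs there read 10.23 and 9.75 with stimulation, against 8.77 and 8.31 without it. Every stimulated array was above every unstimulated one, with rises of 1.36 ± 0.30 in KO (SE, limma adjusted p = 0.0444) and 1.45 ± 0.30 in WT Tregs (adjusted p = 0.0365). The KO call was kept in 8 of 17 alternatives and the WT call in 11 of 17. Each of the 4 stimulated arrays and each of the 2 unstimulated WT arrays ended both calls when left out, and unstimulated KO replicate 1 also ended the KO call. Without the 2 arrays of lowest median, an alternative chosen after seeing the data, the change was 0.98 in KO (limma adjusted p = 0.0769) and 1.22 in WT Tregs (adjusted p = 0.0170).

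In the Rheb experiment Tnfsf8 read 9.91, 9.63 and 9.82 in stimulated KO Tregs, against 9.49, 9.60 and 9.67 in unstimulated ones. WT Tregs read 9.58, 9.67 and 9.62 after stimulation, against 9.60, 9.61 and 9.49 without it. The states overlapped in both genotypes, and the changes of 0.20 ± 0.10 in KO (SE, limma adjusted p = 0.274) and 0.06 ± 0.10 in WT Tregs (adjusted p = 0.828) did not pass. A test added after the values were seen, in 1 limma fit of all 20 arrays, set the response in the Rag experiment against that in the Rheb experiment. The difference was 1.16 ± 0.28 in KO Tregs (SE, adjusted p = 0.0585, with 0.569% of all genes called) and 1.39 ± 0.28 in WT Tregs (adjusted p = 0.0284, with 0.323% called). Among the 9 genes, Tnfsf8 in WT Tregs was the single response that passed this test. The fit pools the spread of both experiments. Its SE of 0.28 lies below the 0.30 of the Rag response in its own fit, so the adjusted p may be too small.

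Tnfsf11 encodes RANKL, the ligand that drives osteoclast and medullary thymic epithelial differentiation. It read 8.80, 8.56 and 8.54 in stimulated Rheb1/2 KO Tregs, against 9.13, 9.12 and 8.95 in unstimulated ones, and the stimulated arrays were all lower. WT Tregs read 8.39, 8.54 and 8.57 with stimulation, against 8.87, 8.97 and 8.51 without it, and these overlapped. Tnfsf11 fell by 0.43 ± 0.13 in KO Tregs (SE, limma adjusted p = 0.0493), a call kept in 8 of 20 alternatives and ended without any 1 of 9 arrays. The change of -0.28 ± 0.13 in WT Tregs (adjusted p = 0.219) did not pass, except without unstimulated WT replicate 3, where it was -0.42. The Rag-experiment states overlapped, at 8.58 and 8.61 in stimulated KO and 8.81 and 8.57 in stimulated WT Tregs, against 8.51 and 8.75 in unstimulated KO and 8.70 and 8.12 in unstimulated WT Tregs.

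Cd40lg encodes CD40 ligand, through which T cells activate B cells and dendritic cells. It read 8.25, 8.33 and 8.19 in stimulated Rheb1/2 KO Tregs, against 7.90, 8.65 and 8.26 in unstimulated ones, and the groups overlapped. WT Tregs read 7.81, 7.88 and 7.73 after stimulation, against 8.08, 8.30 and 8.20 without it. The stimulated WT arrays were the lowest of that experiment, and the WT change of -0.39 ± 0.15 did not pass (SE, limma adjusted p = 0.142). Cd40lg read 8.29 and 8.77 in stimulated RagAB KO Tregs, against 7.22 and 7.86 in unstimulated ones. WT Tregs beside them read 8.30 and 7.78 after stimulation, against 8.22 and 7.86 without it. The stimulated KO arrays were higher than the unstimulated KO ones, by 0.99 ± 0.29 (SE, limma adjusted p = 0.122), and WT arrays of the 2 states overlapped, with a change of 0.00 ± 0.29 (adjusted p = 0.997).

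**Figure D2:**
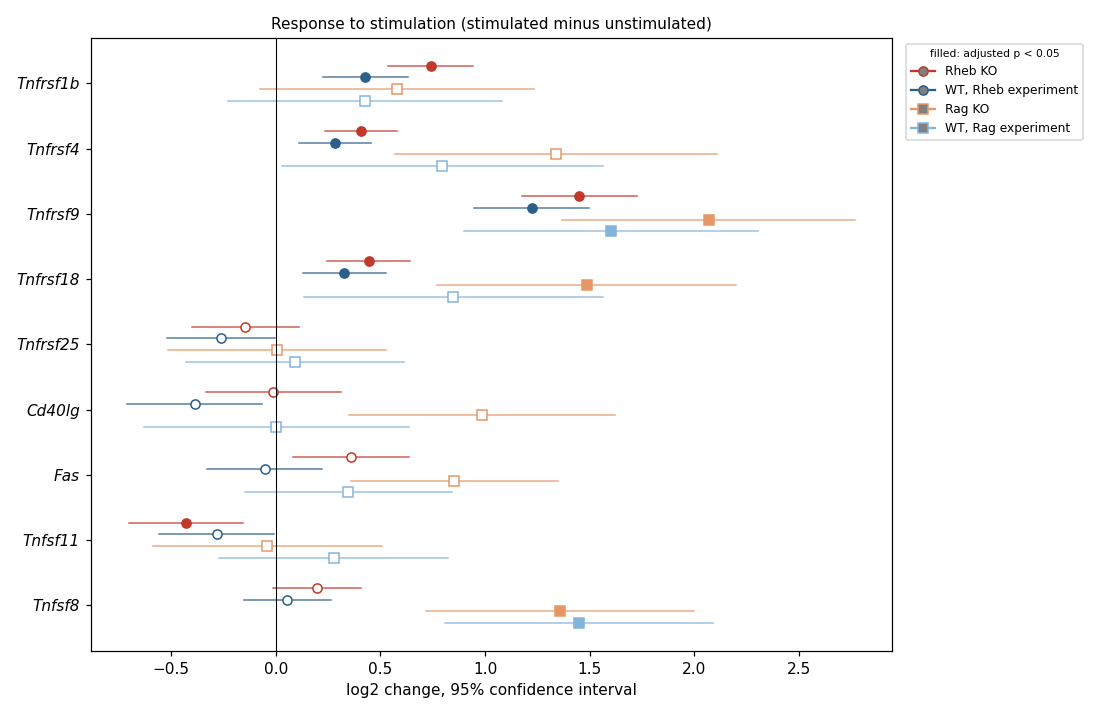
Log2 change of each gene on stimulation (horizontal axis, stimulated minus unstimulated) with its 95% confidence interval, for Rheb KO, WT of the Rheb experiment, Rag KO and WT of the Rag experiment. Filled symbols passed an adjusted p under 0.05; Tnfrsf9 is filled in all 4 series and Tnfsf8 in both Rag-experiment series, with wider intervals for the 2 arrays per group of that experiment.

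Loss of Rheb1/2 or of RagAB did not move any of the 9 genes past the test, in either state. The share of all genes called was 0.543% in stimulated and 0.508% in unstimulated Tregs for Rheb1/2 KO against WT, and 0.103% and 0.113% for RagAB KO against WT. At an unadjusted p under 0.05, 2 of the 9 genes passed in stimulated and 2 in unstimulated Rheb1/2 KO Tregs, and 0 in either state of RagAB KO Tregs, by the same limma fits. At that threshold 9.25% of all genes passed in stimulated and 10.2% in unstimulated Rheb1/2 KO Tregs, and 5.07% and 6.66% in stimulated and unstimulated RagAB KO Tregs. The median KO change of the 9 genes was 0.13 in stimulated and 0.01 in unstimulated Rheb1/2 KO Tregs, beside -0.01 and 0.02 for all genes. In RagAB KO Tregs it was 0.28 and -0.19, beside -0.05 and 0.03.

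In stimulated Tregs, 3 genes read higher on every Rheb1/2 KO array than on every WT array (Tnfrsf9, Cd40lg and Fas), against 6.75% of all genes with that separation. Fas was higher by 0.50 ± 0.13 (SE, unadjusted p = 0.00167, limma adjusted p = 0.140), with a 95% confidence interval of 0.23 to 0.78. Cd40lg was higher by 0.45 ± 0.15 (SE, limma adjusted p = 0.316; interval 0.13 to 0.77). Tnfrsf9 was higher by 0.24 ± 0.13 (SE, limma adjusted p = 0.627; interval -0.03 to 0.51). In stimulated RagAB KO Tregs, Fas (0.31 ± 0.23, SE) and Tnfrsf9 (0.54 ± 0.33) read above both WT arrays and Tnfsf8 (-0.39 ± 0.30) below both, against 18.1% of all genes separated upwards and 26.2% downwards, and the limma adjusted p was 0.947 for each. The Cd40lg difference there was 0.49 ± 0.29 (SE, limma adjusted p = 0.947) with overlapping arrays.

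In unstimulated Tregs, Tnfrsf1b and Tnfrsf4 read lower on all 3 Rheb1/2 KO arrays than on all 3 WT arrays, against 7.08% of all genes with that separation. Tnfrsf1b differed by -0.31 ± 0.09 (SE, unadjusted p = 0.00591, limma adjusted p = 0.227; 95% interval -0.51 to -0.11) and Tnfrsf4 by -0.14 ± 0.08 (adjusted p = 0.618; interval -0.31 to 0.03). Tnfsf11 differed by 0.28 ± 0.13 (SE, unadjusted p = 0.0458, limma adjusted p = 0.479) with overlapping arrays. In unstimulated RagAB KO Tregs, Fas read below both WT arrays, with a difference of -0.19 ± 0.23 (SE, limma adjusted p = 0.911), against 12.5% of all genes so separated. The intervals of the RagAB KO differences were wide, reaching from -1.07 to 0.36 for Tnfrsf18 in unstimulated Tregs.

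**Figure D3:**
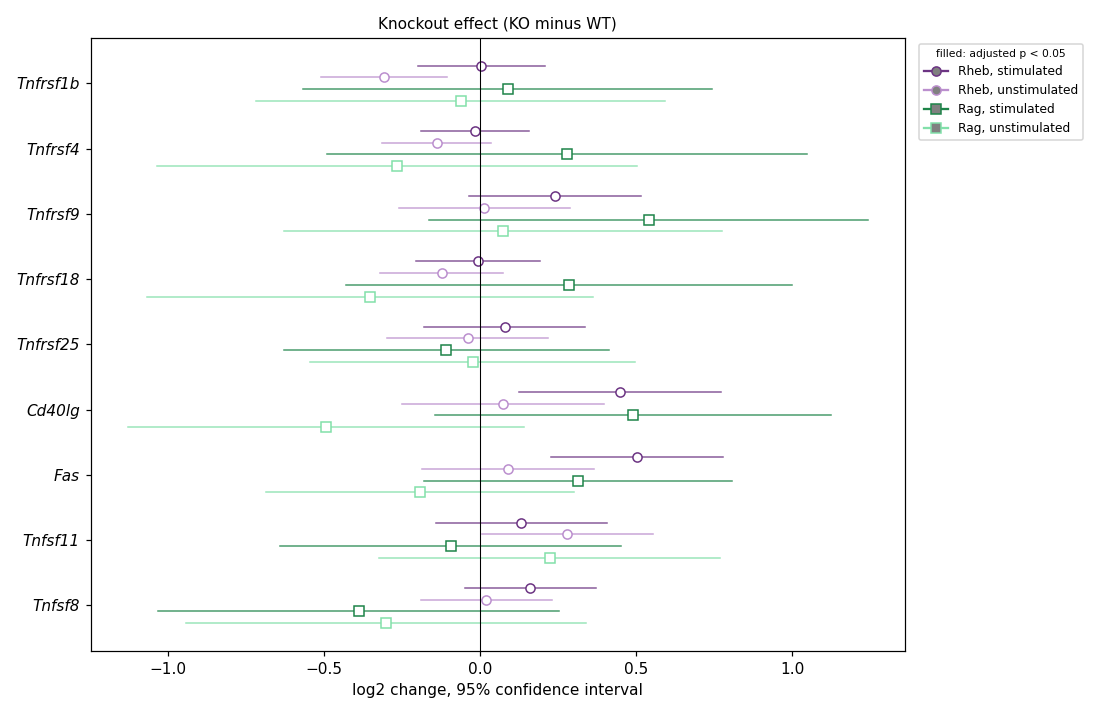
Log2 difference of each gene between KO and WT Tregs (horizontal axis, KO minus WT) with its 95% confidence interval, in stimulated and unstimulated Tregs of the Rheb and Rag experiments. No symbol is filled, since no gene passed an adjusted p under 0.05; the Fas and Cd40lg intervals in stimulated Rheb Tregs and the Tnfrsf1b and, narrowly, Tnfsf11 intervals in unstimulated Rheb Tregs lie clear of 0.

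Whether the stimulation response differed between genotypes was tested as the KO response minus the WT response. None of the 9 genes and no other gene passed in either experiment (0 of 19505 genes by limma in each), while 1207 genes (6.19%) in the Rheb and 1202 (6.16%) in the Rag experiment had an unadjusted p under 0.05. Among the 9 genes, Fas (0.41 ± 0.18, SE) and Tnfrsf1b (0.31 ± 0.13) had an unadjusted p under 0.05 in the Rheb experiment, with limma adjusted p of 0.802 and 0.783. Cd40lg did in the Rag experiment (0.98 ± 0.42, SE; limma adjusted p = 0.728). The RagAB KO effect minus the Rheb1/2 KO effect, each taken against its own WT arrays in 1 fit of 20 arrays, passed for none of the 9 genes, against 0.190% of all genes in stimulated and 0.0564% in unstimulated Tregs.

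Markers of other cells moved with some of these comparisons, and their part in the results was not tested. The mean log2 level of the 10 measured macrophage markers was 6.73 to 6.77 in stimulated and 7.75 to 7.85 in unstimulated Rheb1/2 KO Tregs. In WT Tregs it was 6.69 to 6.93 with stimulation and 7.32 to 7.40 without it. On stimulation 7 of the 10 fell in each genotype of the Rheb experiment, while 4 receptor genes of the family rose there. The share of all genes called in either direction was 9.75% in KO and 9.37% in WT Tregs. In unstimulated Rheb1/2 KO against WT Tregs all 10 differences lay above 0 and 2 passed (C1qa and Ms4a7), beside the lower Tnfrsf1b and Tnfrsf4 readings. In the Rag experiment the macrophage level was 6.44 to 6.58 in stimulated KO and 6.35 to 6.51 in stimulated WT Tregs, against 6.31 to 6.69 in unstimulated KO and 5.96 to 6.42 in unstimulated WT Tregs, and 0 of the 10 passed on stimulation.

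Treg markers and markers of further cell types moved too, and their part in the results was likewise not tested. Of 9 measured Treg markers, 5 rose in Rheb1/2 KO and 3 in WT Tregs on stimulation, and in the Rag experiment 2 rose in KO (Il2ra and Gpr83) and 0 in WT Tregs. The mean level of the Treg list was 11.13 to 11.18 in stimulated and 10.69 to 10.90 in unstimulated Rheb1/2 KO Tregs, and 11.26 to 11.29 in stimulated and at most 11.04 in unstimulated WT Tregs. T cell markers fell on the same comparisons, 5 of 7 in Rheb1/2 KO and 4 of 7 in WT Tregs, with mean levels of 11.16 to 11.25 in stimulated and 11.58 to 11.62 in unstimulated KO Tregs, and 11.45 to 11.46 in stimulated and 11.76 to 11.77 in unstimulated WT Tregs. Of 11 dendritic cell markers 4 fell in each genotype, of 9 NK cell markers 2 fell in KO and 3 in WT Tregs, and of 9 B cell markers 1 fell in KO and 0 in WT Tregs. No marker of these 4 lists passed on stimulation in the Rag experiment.

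In unstimulated Rheb1/2 KO against WT Tregs, 8 of the 9 Treg markers lay below 0. Lrrc32, which encodes the Treg surface protein GARP, was lower by -0.66 ± 0.11 (SE, limma adjusted p = 0.0257). The class II genes H2-Eb1 (0.83 ± 0.14, SE) and H2-Ab1 (0.73 ± 0.15) of the dendritic cell list and the Fc receptor gene Fcgr3 (0.84 ± 0.14) of the NK cell list were higher in the KO, with limma adjusted p of 0.0192, 0.0479 and 0.0257 in that order. In stimulated Rheb1/2 KO against WT Tregs H2-Eb1 was higher by 0.78 ± 0.14 (SE, limma adjusted p = 0.0233), beside the Fas, Cd40lg and Tnfrsf9 readings, and 10 of 11 dendritic cell and all 9 NK cell marker differences lay above 0. The mean level of the dendritic cell list was 7.67 to 7.75 in stimulated KO and 7.46 to 7.65 in stimulated WT Tregs, and 8.15 to 8.25 in unstimulated KO and 7.80 to 7.98 in unstimulated WT Tregs. No marker passed in a RagAB KO against WT comparison.

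Other genes of the pathway were read in 4 lists, and the NF-κB list gave the most calls. Many of these probe sets were dim: in the Rheb experiment 20 of 21 other receptors, 10 of 13 other ligands, 5 of 18 adaptor and death domain genes and 5 of 15 NF-κB genes lay above the 95th percentile of the negative control probe sets on no array. On stimulation 9.75% of all genes were called in Rheb1/2 KO Tregs and 9.37% in WT Tregs, and 1.32% and 1.00% in the Rag experiment. For Rheb1/2 KO against WT the shares were 0.543% in stimulated and 0.508% in unstimulated Tregs. Of the 15 measured NF-κB subunits and regulators, 6 fell on stimulation in Rheb1/2 KO Tregs and 6 in WT Tregs, and none rose. Nfkbie overlapped between states in KO Tregs, and its KO call was kept in 5 of 20 alternatives. The median changes of the 15 were -0.27 in KO and -0.26 in WT Tregs, beside -0.01 and 0.02 for all genes. Tnfaip3, which encodes the NF-κB inhibitor A20, fell by 1.32 ± 0.13 in KO (SE, limma adjusted p = 2.4e-05) and by 1.48 ± 0.13 in WT Tregs (adjusted p = 1.5e-05). Nfkbia, the gene for IκBα, fell by 0.88 ± 0.09 in KO and by 0.95 ± 0.09 in WT Tregs (SE). Of the genes for the nuclear IκB proteins, Nfkbiz fell by 0.75 and Nfkbid by 0.66 in KO Tregs, and in WT Tregs they fell by 0.97 and 0.83. These 4 genes kept their calls in 20 of 20 alternatives in both genotypes.

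In the Rag experiment none of the 15 passed on stimulation, with medians of 0.44 in KO and 0.39 in WT Tregs, beside 0.09 and 0.21 for all genes. Tnfaip3 changed there by 1.20 ± 0.36 in KO (SE, limma adjusted p = 0.131) and 0.67 ± 0.36 in WT Tregs (adjusted p = 0.383), neither of which passed. Nfkbid values were 0.92 ± 0.26 in KO (SE, limma adjusted p = 0.103) and 1.05 ± 0.26 in WT Tregs (adjusted p = 0.0796). Between alternatives, 0 to 6 of the 15 rose in RagAB KO and 0 to 4 in WT Tregs.

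**Figure D4:**
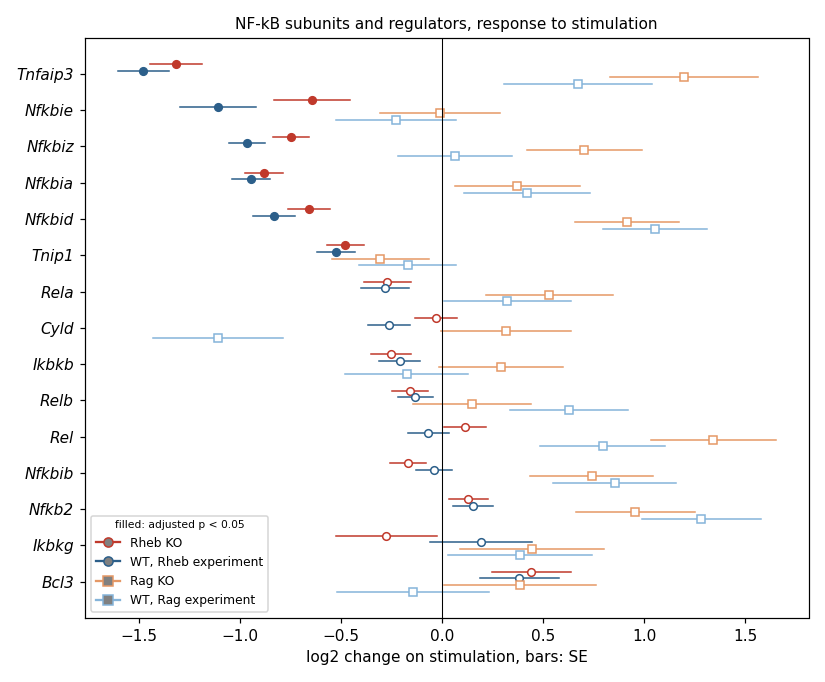
Log2 change on stimulation (horizontal axis) of the 15 measured NF-κB subunits and regulators, with bars for the standard error, in Rheb KO, WT of the Rheb experiment, Rag KO and WT of the Rag experiment. Filled symbols passed an adjusted p under 0.05; they are all on the negative side and all from the Rheb experiment, with Tnfaip3 at -1.32 in KO and -1.48 in WT Tregs.

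Among the 21 other TNF family receptors, 1 fell in stimulated Rheb1/2 KO against WT Tregs and none in the unstimulated comparison. It was Tnfrsf8, the gene for CD30, the receptor that binds the product of Tnfsf8, and it is the chromosomal neighbour of Tnfrsf1b. Tnfrsf8 differed by -0.86 ± 0.17 (SE, limma adjusted p = 0.0447), a call kept in 5 of 20 alternatives and ended without any of the 6 stimulated arrays. The difference in stimulated RagAB KO Tregs was -0.65 ± 0.34 and did not pass (SE, limma adjusted p = 0.947). On stimulation 2 of the 21 fell in Rheb1/2 KO Tregs, Relt by 0.87 ± 0.15 and Tnfrsf1a, the death domain receptor for TNF, by 0.61 ± 0.14 (SE). No other receptor passed in WT Tregs of the Rheb experiment. In the Rag experiment none of the 21 passed in KO Tregs and 1 rose in WT Tregs, Tnfrsf10b, the mouse TRAIL receptor, by 1.11 (limma adjusted p = 0.0499, kept in 8 of 17 alternatives).

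Of the 13 measured other ligands, stimulation raised 1 and lowered 1 in Rheb1/2 KO Tregs. Tnfsf4, the gene for OX40 ligand, rose by 0.75 ± 0.18 (SE, limma adjusted p = 0.0151, kept in 15 of 19 alternatives), and Ltb, the gene for lymphotoxin beta, fell by 0.67 ± 0.12 (adjusted p = 0.00283). In WT Tregs Tnfsf9, which encodes the ligand of 4-1BB, rose by 0.68 ± 0.18 (SE, limma adjusted p = 0.0277), Tnf rose by 0.40 ± 0.10 (adjusted p = 0.0192) and Ltb fell by 0.47 ± 0.12 (adjusted p = 0.0271). These WT calls were kept in 14 of 19, 16 of 20 and 13 of 20 alternatives in that order. Tnfsf4 and Tnfsf9 lay above the 95th percentile of the negative control probe sets on 0 of the 12 arrays, and Tnfsf4 lay below their median on 9 of them and Tnfsf9 on 3. Their changes are therefore differences of signal within the range of the control probe sets. In RagAB KO Tregs 1 ligand passed, Fasl, which encodes the ligand of Fas, with a rise of 1.45 ± 0.27 (SE, limma adjusted p = 0.0190, kept in 13 of 17 alternatives), at signals above that percentile on 0 of 8 arrays. In WT Tregs of that experiment none passed, and Fasl changed by 0.51 ± 0.27 (SE, limma adjusted p = 0.378). No ligand passed in a KO against WT comparison.

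Of the 18 measured TRAF adaptors and death domain signalling genes, Traf1 fell and Traf6 rose on stimulation in both genotypes of the Rheb experiment. Traf1, a TNF receptor adaptor, fell by 0.71 ± 0.11 in KO and by 0.55 ± 0.11 in WT Tregs (SE). Traf6 rose by 0.45 ± 0.10 in KO and 0.39 ± 0.10 in WT Tregs (SE). Birc2, the gene for the ubiquitin ligase cIAP1, fell in WT Tregs by 0.44 ± 0.12 on stimulation (SE, limma adjusted p = 0.0396, kept in 9 of 20 alternatives), and it was higher in stimulated Rheb1/2 KO than WT Tregs by 0.72 ± 0.12 (adjusted p = 0.0219, kept in 12 of 20 alternatives). Each of the 6 stimulated arrays ended the KO against WT call when left out. In unstimulated Rheb1/2 KO against WT Tregs 1 gene of the list passed, Ripk3, a kinase of necroptosis, at -0.59 ± 0.12 (SE, limma adjusted p = 0.0457, kept in 6 of 20 alternatives and ended without 10 of the 12 arrays). None of the 18 passed in these comparisons of the Rag experiment.

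Genes with the most similar pattern were named for the 4 members with the largest spread over the 12 Rheb-experiment arrays, by Pearson r over those arrays among 9743 genes above the median level. These are descriptions, since the arrays share groups and scaling. The genes were picked for the highest r over the Rheb-experiment arrays, so a lower r over other arrays is likely from the selection. Tnfrsf9 was most like Tmem140 (r = 0.984, and 0.823 over the 8 Rag-experiment arrays) and Zfp825 (r = 0.984, and 0.538). Tnfrsf1b was most like Eea1 (r = 0.979, and 0.701) and N4bp1 (r = 0.974, and 0.905). Tnfsf11 was most like Slc11a1 (r = 0.954, and 0.570) and Foxp4 (r = 0.928, and 0.835). Cd40lg was most like Svip (r = 0.929, and 0.240) and Stk38 (r = 0.889, and 0.106), a likeness far weaker over the Rag-experiment arrays. The Cd40lg signal lay within the range of the control probe sets.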

How the data were processed

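Total RNA of sorted CD4+CD25+ Tregs was amplified, biotin-labelled and hybridised to 20 Clariom S mouse arrays, per the labels' protocols. The authors deposited log2 values per probe set, made with RMA in Affymetrix Expression Console 1.1, per the submitters' processing notes. Of 28846 probe sets, 19572 carried 1 gene name in the platform annotation, which gave 19505 genes, 55 of them with more than 1 probe set. The deposited log2 values were used without further normalization, because the sources used here do not say if the 2 experiments were normalized jointly.

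limma 3.58.1 (R 4.3.3; lmFit and eBayes) was fitted with 1 mean per group, separately for the 12 arrays of the Rheb and the 8 arrays of the Rag experiment, which share 1 estimate of spread per gene within an experiment. A fit of all 20 arrays, with 1 estimate of spread per gene over both experiments, gave differences between experiments. All tests are two-sided, with Benjamini-Hochberg adjustment over 19505 genes and a threshold of 0.05. Array signal over the negative control probe sets (5222) and the number of arrays limit the precision. Alternatives covered scaling, low-signal filtering, the variance prior, the samples in the fit, a replicate block and each array left out. Named genes were all members, up to 4 called genes per pathway list and comparison with the smallest adjusted p, the targeted genes, and the 2 genes most like each of 4 members. The members and lists were chosen with earlier results of these data known. Promoter sequences are from RefSeq (GRCm38.p6).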

Additional observations from a re-analysis of the deposited data

Results flagged for a closer look

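The response of Tnfsf8 to stimulation in WT Tregs was larger in the Rag than in the Rheb experiment, by a log2 difference of 1.39 ± 0.28 (SE, limma adjusted p = 0.0284, 1 fit of 20 arrays with 4 WT arrays of the Rag and 6 of the Rheb experiment). This test was added after the values were seen. The SE comes from the spread pooled over both experiments and lies below the 0.30 of the Rag WT response in its own fit, so the adjusted p may be too small. It passed in 14 of 22 alternatives, with adjusted p from 0.00461 to 0.256 and values from 1.15 to 1.64. Tnfsf8 signal exceeded the 95th percentile of the negative control probe sets on 2 of 8 Rag and 0 of 12 Rheb arrays. Every stimulated Rag WT array lay above both unstimulated ones, while the states overlapped in the Rheb experiment. The KO difference of 1.16 (adjusted p = 0.0585) passed in 6 of 22 alternatives. Array medians also differed, at 7.18 to 7.55 in the Rag and 7.67 to 7.77 in the Rheb experiment, and the hours of stimulation are given for the Rag experiment only, so these cannot be told apart from the experiment.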

How the results depend on the processing

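The count of family genes called on stimulation in Rheb1/2 KO Tregs, 5 as reported, was 2 with all 20 arrays in 1 fit and 4 to 5 with an array left out. In WT Tregs of that experiment the 4 calls became 2 with arrays centred on their medians, 2 with the replicate block, 1 with all 20 arrays in 1 fit, 1 with only the groups compared, and 1 to 3 with an array left out. In RagAB KO Tregs the 3 calls became 6 with all 20 arrays, 4 each with the low-signal filter, the trended variance prior and the replicate block, 1 with only the groups compared, and 0 to 6 with an array left out. In Rag WT Tregs the 2 calls became 3 with all 20 arrays, where Tnfrsf18 was gained (limma adjusted p = 0.0302), and 0 to 2 with an array left out. Without the 2 Rag arrays of lowest median, added after seeing the data, 2 were called in each genotype. A fit that leaves 1 array in a group assumes that it varies like the other groups. The other 8 comparisons gave 0 family genes in every alternative run. Of 2133 gene values under an alternative, 109 changed sign where neither value had been called, and 0 called values did. Counts over all genes called ranged, over all alternatives, from 27 to 200 for unstimulated Rheb1/2 KO against WT (99 as reported), 13 to 214 stimulated (106), 0 to 530 for unstimulated RagAB KO (22) and 2 to 274 stimulated (20). They ranged from 920 to 2331 (1901) and 806 to 2286 (1828) for stimulation in KO and WT of the Rheb experiment, 45 to 2146 (258) and 13 to 1930 (195) in the Rag experiment, 0 to 7 and 0 to 387 for the differences in response (0 each), and 3 to 871 (11) and 12 to 130 (37) for the unstimulated and stimulated Rag minus Rheb effects. Replicate numbers were not taken as pairs, because same-numbered arrays deviated together little over all genes. The r ran from -0.18 to 0.18 in the Rheb and from -0.02 to 0.23 in the Rag experiment. With 2 arrays per group, both pairs of a Rag comparison give the same r. The 9 family genes did deviate together by number in Rag WT Tregs. Above the group mean lay 9 of them on stimulated and 8 on unstimulated replicate 1, with mean deviations of 0.24 and 0.30. On replicate 2 these were 0 and 1 genes, with -0.24 and -0.30. In RagAB KO Tregs it was 5 on stimulated and 0 on unstimulated replicate 1. The replicate block takes the numbers as pairs. Where arrays were left out, the counts come from fewer arrays. With all 20 arrays in 1 fit the log2 changes stayed the same, and the estimate of spread was shared over both experiments. For the other settings the cause was not tested. Low signal limits Cd40lg, Fas, Tnfsf11 and Tnfsf8, and Tnfrsf1b on part of the arrays, and 2 arrays per group limit the Rag experiment.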
